A study of Bos taurus with 37 samples.

Results

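The genes described here encode the splicing factors and heterogeneous nuclear ribonucleoproteins (hnRNPs) of bovine blastocysts. They were taken from the expression table by symbol: the numbered SRSF genes, all HNRNP, SNRP and U2AF genes, the numbered SF3A and SF3B genes and the numbered PRPF genes, with 2 matching symbols left out by the rule. This gave 65 rows for 64 symbols, out of 22628 rows in the table, with SNRPD1 on 2 rows. By role they are 10 SR proteins, 18 hnRNPs, 4 proteins of the U1 and U2 small nuclear ribonucleoproteins (snRNPs), 3 U2AF genes, 9 members of the SF3A and SF3B complexes, 13 PRPF proteins and 8 rows of the Sm core ring.

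Introns are removed by the spliceosome, which is built anew on each intron from snRNPs and free proteins. The U1 snRNP and U2AF recognise the ends of the intron, the U2 snRNP with SF3A and SF3B settles on the branch point, and the joined U4, U6 and U5 snRNPs, which carry many of the PRPF proteins, complete the machine. SR proteins mostly promote the use of the exons they bind, and hnRNPs often oppose it, so the balance between them takes part in the choice of alternative exons.

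Poly(A) RNA of single blastocysts was amplified and sequenced, and the levels are FPKM (fragments per kilobase of transcript, scaled to the mapped fragments of the library). Each sex had blastocysts of 3 origins, and every blastocyst was a library of its own. The design asks how somatic cell nuclear transfer (SCNT) embryos and manipulated but fertilized embryos differ from fertilized ones. The FPKM table carries no read counts, so no counting error is given for single values. The study lists the reads of each library in its own summary, and those read numbers do not enter the tests. The share of mapped reads from that summary is used below for the male sham group, where most libraries had a low share. Every comparison with male sham blastocysts carries this limit.

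The groups were as follows. SCNT blastocysts (6 female, 6 male) were made by fusing an enucleated oocyte with an adult ear skin fibroblast and activating it, and all SCNT embryos of a sex came from the donor cells of that sex. Sham blastocysts (5 female, 6 male) came from IVF zygotes from which the polar body and some ooplasm were drawn off, both pronuclei being kept, before activation with ionomycin and DMAP. IVF blastocysts (6 female, 6 male) were fertilized in vitro and not manipulated. The donor fibroblasts, passaged before use, gave 1 library for each sex. The female and the male libraries ran on separate flow cells, so that sex and flow cell cannot be told apart. Groups were compared within a sex, and only the tests of a difference between the sexes (interactions) join both.

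Summed FPKM per library ran from 414105 to 601000, and 9616 to 11382 genes were over 1 FPKM. Female SCNT replicates 5 and 6 were the least like their group (median correlation with the other libraries of the group 0.868 and 0.851). Trophectoderm markers were high in every blastocyst (10 genes, summed FPKM of at least 1799) and low in the donor cells (38.2 and 19.2), while fibroblast markers were high in the donor cells (10 genes, 7807 in the female library and 12371 in the male one) and summed to at most 38.4 in any blastocyst. Whole blastocysts were sequenced, so that fewer cells of a type and less RNA per cell cannot be told apart.

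Splicing genes were broadly expressed. Of the 65 members, 60 were over 1 FPKM in all 35 blastocysts, and the mean over the blastocysts was above 100 FPKM for 10 members, between 10 and 100 FPKM for 49 and below 10 FPKM for 6. The most abundant was HNRNPK, a KH-domain RNA and DNA binding protein, with a mean of 927 FPKM and values between 408 and 1874 FPKM. PRPF8, the protein at the catalytic centre of the spliceosome, followed with 417 FPKM, then HNRNPL, which binds CA-rich RNA, with 275 FPKM, and SF3B4, a subunit of SF3B, with 241 FPKM. In their own groups SNRPG (Sm ring) averaged 148 FPKM over the blastocysts. The first of the SNRPD1 rows was listed at 0 in 28 of the 35 blastocysts, and the second row averaged 96.9 FPKM. HNRNPA1L2, a gene of HNRNPA1-like sequence, averaged 0.390 FPKM. Several members, SNRPG, SNRPE, HNRNPA1 and HNRNPA3 among them, belong to families with many near-identical processed copies, so that their reads may be shared with other loci.

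**Figure D1:**
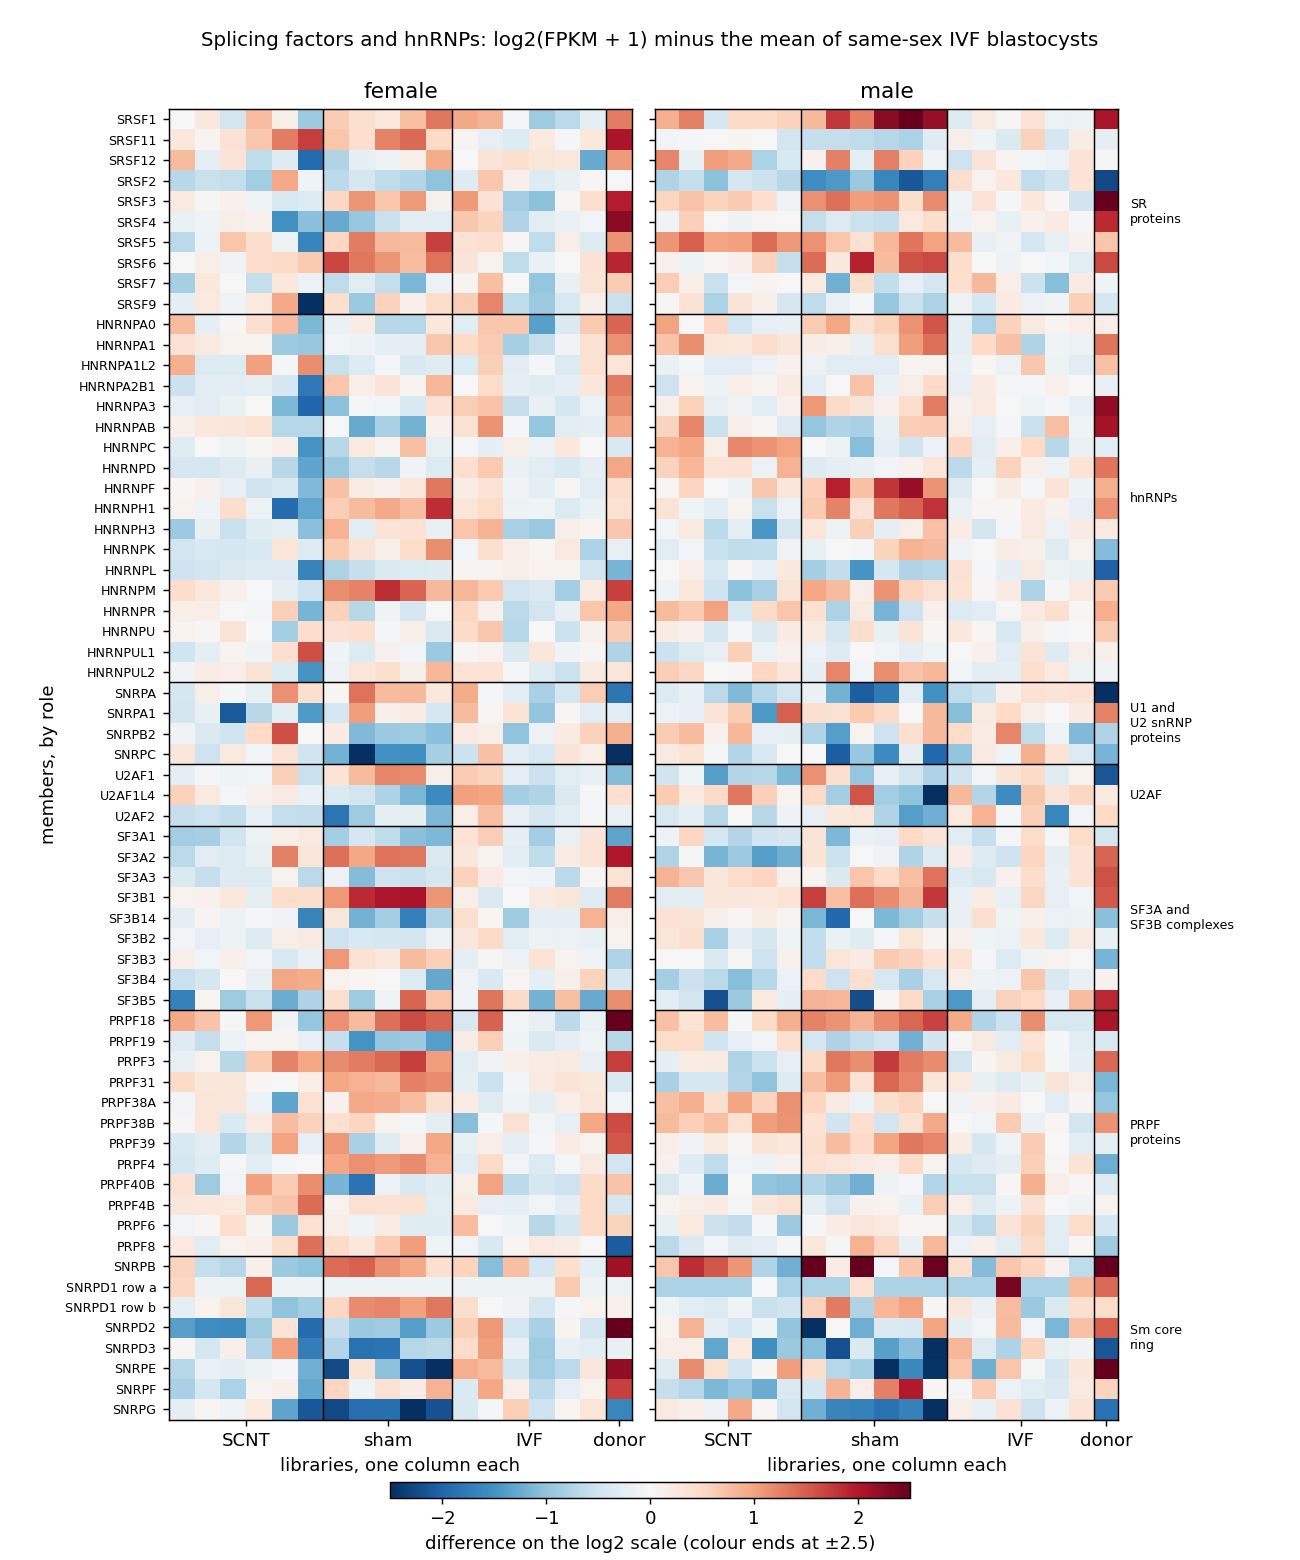
Heat map of 64 of the 65 rows, grouped by role, in 37 libraries, female on the left and male on the right; each column is 1 library, in the order SCNT, sham, IVF, donor fibroblasts, and colour is log2(FPKM + 1) minus the mean of the IVF blastocysts of that sex. SNRPG is blue in all 11 sham columns, and SF3B1 and PRPF3 are red in all 11.

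The sham procedure was set against IVF to ask what manipulation and activation alone are accompanied by. Splicing genes differed in both sexes and in both directions. SF3B1, SRSF6, SRSF5, PRPF3, PRPF18, PRPF31 and HNRNPH1 were higher in sham than in IVF blastocysts of both sexes, and SNRPG, SNRPD3 and PRPF19 were lower in both. SNRPG changed most in females and SRSF1 in males. In females 18 of 64 members tested passed the threshold (limma on log2(FPKM + 1), Benjamini-Hochberg adjusted p under 0.05), 12 higher and 6 lower, where 13.5% of all genes passed (7.03% higher, 6.47% lower). In males 18 of 65 passed, 11 higher and 7 lower, where 12.1% of all genes passed (6.13% higher, 5.96% lower). The groups did not overlap for 13 of the female members, 9 higher and 4 lower, where 5.06% and 3.96% of all genes were higher and lower without overlap, and for 10 of the male members, 6 higher and 4 lower, where 3.35% and 3.27% of all genes were.

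The female and male comparisons share no library. In both sexes together 64 members could be tested, and 10 of them passed in females and in males with the same direction, 7 higher and 3 lower, while none passed with opposite directions. That is 15.6% of the members, against 5.62% of the 14136 genes tested in both sexes. The sign was the same for 50 of the 64 members (78.1%), against 67.2% over all genes. All genes here include those down to a mean of 0.1 FPKM, whereas 59 members averaged above 10 FPKM over the blastocysts. Shares among genes of like level were not computed, a limit of every share of all genes given in the text. Across the 64 members the fold changes of the sexes correlated with Pearson's r = 0.745 and Spearman's rho = 0.713, against 0.528 and 0.508 across all genes; the values are across genes, which are not independent replicates. After scaling every library to the same median the split was 14 higher and 3 lower in females and 12 higher and 5 lower in males.

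**Figure D2:**
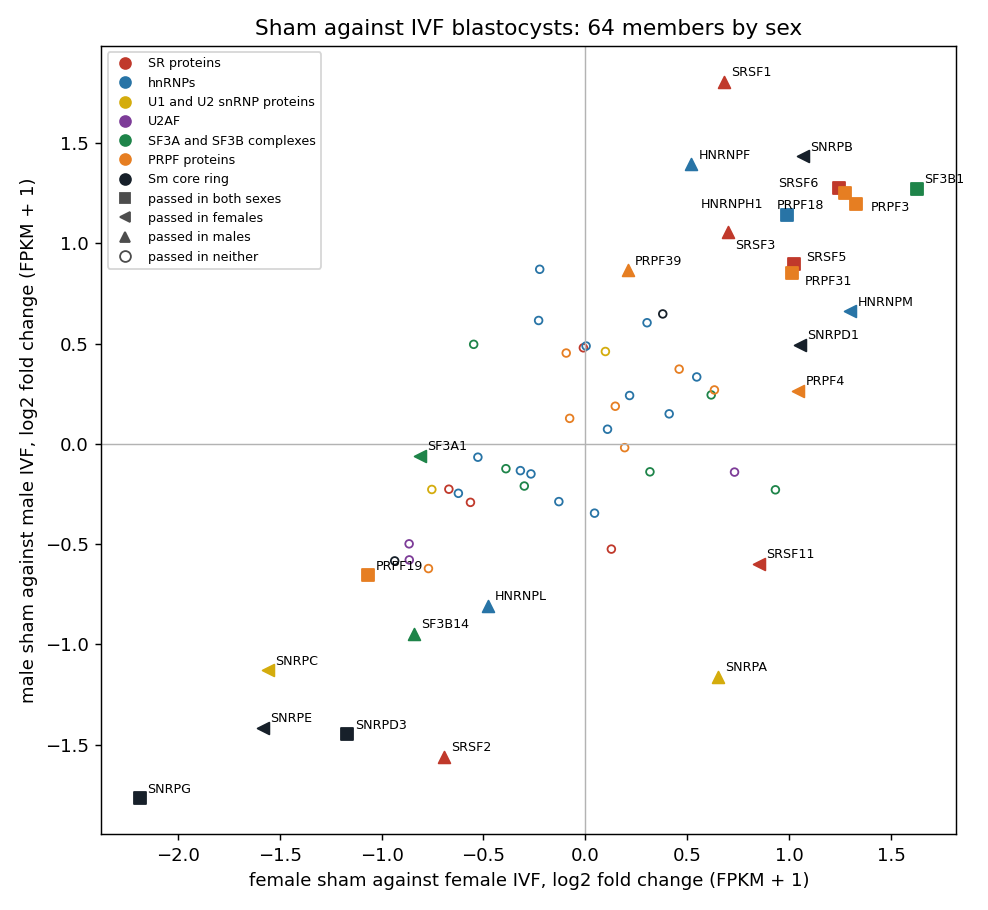
Log2 fold change (log2(FPKM + 1) scale) of sham against IVF blastocysts in females (horizontal) and males (vertical) for 64 members; colour gives the role, filled squares passed in both sexes, filled triangles in 1 sex and open circles in neither. The 10 squares lie in the upper right (7 members) and lower left (3 members), and SNRPA and SRSF11 are the named members with opposite signs.

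Some markers moved with the sham groups too. The 5 inner cell mass and epiblast markers summed to between 52.0 and 74.8 FPKM in female sham blastocysts, against 82.0 to 197 FPKM in female IVF blastocysts, and to between 20.6 and 72.6 FPKM in male sham, against 68.9 to 102 FPKM in male IVF. POU5F1, the pluripotency factor, averaged 18.1 FPKM in female sham against 75.3 FPKM in female IVF, and 15.6 FPKM in male sham against 51.9 FPKM in male IVF. Not all of the 5 fell. LIN28B averaged 8.28 FPKM in male sham against 2.21 FPKM in male IVF, and SALL4 10.6 against 9.69 FPKM. In females LIN28B was at 4.77 FPKM in sham against 4.69 FPKM in IVF. NANOG and SOX2 were lower on average in sham of both sexes, and SALL4 in females. Fibroblast markers summed to 17.0 to 38.4 FPKM in male sham and 6.04 to 13.0 FPKM in male IVF. In females these sums overlapped, at 7.10 to 17.7 FPKM in sham and 6.54 to 28.1 FPKM in IVF. Among them COL1A2 averaged 13.6 FPKM in male sham against 4.73 FPKM in male IVF, and PDGFRB 11.6 against 1.61 FPKM. VIM, THY1, LUM and DCN were lower on average in male sham. Trophectoderm and primitive endoderm sums overlapped between sham and IVF in both sexes, but single markers moved. Every listed trophectoderm marker was lower on average in female sham, and all but GATA3 and KRT8 were in male sham. TEAD4 averaged 34.4 FPKM in female sham against 74.8 FPKM in female IVF, and 41.4 against 54.8 FPKM in males. GATA6 averaged 86.6 against 174 FPKM in females and 84.4 against 106 FPKM in males. HNF4A averaged 65.5 against 19.7 FPKM in females and 49.0 against 28.5 FPKM in males. Summed FPKM of the whole library was higher in every female sham blastocyst (507832 to 554711) than in every female IVF blastocyst (414105 to 489827). The part of these differences in the results for splicing genes was not tested.

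Among the SR proteins, SRSF5 and SRSF6 rose in sham blastocysts of both sexes, and SRSF1, SRSF2 and SRSF3 passed in males. SRSF6, a regulator of alternative exons, had 153, 119.6, 103, 81.7 and 122 FPKM in the female sham blastocysts, against a lowest, median and highest value of 30.1, 49.0 and 61.3 FPKM in female IVF. All 5 female sham embryos lay above all 6 IVF embryos. The log2 fold change was 1.25 ± 0.23 (SE; limma adjusted p = 0.00219). In males SRSF6 ran from 62.7 through a median of 149 to 200.1 FPKM in sham blastocysts, against 42.9, 50.7 and 70.9 FPKM in IVF, a log2 fold change of 1.27 ± 0.26 (limma adjusted p = 0.00416). The lowest male sham embryo fell inside the IVF range, and the other 5 lay above it.

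SRSF5, whose transcript is itself spliced in alternative ways, had 46.2, 79.6, 57.5, 56.5 and 107 FPKM in female sham. All lay above female IVF (20.2, 34.1 and 43.7 FPKM as lowest, median and highest). The log2 fold change was 1.02 ± 0.26 (limma adjusted p = 0.0173). Male sham blastocysts had 46.3, 67.5 and 91.1 FPKM, against 25.6, 32.0 and 62.0 FPKM in male IVF (0.89 ± 0.23, limma adjusted p = 0.0187). Here 1 male IVF embryo, replicate 1, reached into the sham range.

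SRSF1 and SRSF2, which bind purine-rich and more varied exonic enhancers, moved in opposite directions in males. SRSF1 had 26.1, 60.1 and 91.4 FPKM in male sham as lowest, median and highest, against 11.4, 13.95 and 18.7 FPKM in male IVF, with no overlap (log2 fold change 1.81 ± 0.28, limma adjusted p = 0.000632). SRSF2 had 12.7, 18.6 and 29.9 FPKM in male sham, against 37.4, 65.8 and 77.5 FPKM in male IVF, again with no overlap (-1.56 ± 0.25, limma adjusted p = 0.000741). As a result every male sham embryo had more SRSF1 than SRSF2 (ratio 1.21 to 7.22, median 3.25), and every male IVF embryo had less (0.147 to 0.501, median 0.244). This ratio was chosen after the values were seen. Female embryos had a ratio of 0.891 to 2.59 in sham and 0.313 to 1.22 in IVF, and neither gene passed there (SRSF1 0.68 ± 0.34, adjusted p = 0.221; SRSF2 -0.69 ± 0.22, adjusted p = 0.0513).

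SRSF3, the smallest SR protein and one that also takes part in mRNA export, had 66.7, 108 and 128 FPKM in male sham, above all male IVF embryos (34.1, 48.5 and 62.0 FPKM; log2 fold change 1.06 ± 0.20, limma adjusted p = 0.00293). SRSF11 passed in females alone, with 61.9, 51.0, 90.9, 103 and 53.7 FPKM in sham against 29.8, 38.4 and 45.5 FPKM in IVF (0.85 ± 0.23, limma adjusted p = 0.0226). Its groups did not overlap, but the call was lost without female sham replicate 3, female sham replicate 4 or female IVF replicate 3 (adjusted p up to 0.0685). In males SRSF11 had 53.8, 61.0 and 76.0 FPKM in sham against 69.0, 95.5 and 139.9 FPKM in IVF (-0.60 ± 0.20, adjusted p = 0.0612). The difference between the sexes was tested and passed: 1.45 ± 0.29 on the log2 scale (female effect minus male effect, limma adjusted p = 0.00830), the only one of 65 members to do so, where 1.22% of all genes passed. It held when any 1 library was left out, but sex and flow cell cannot be told apart in it. With male sham replicate 2 standing alone for its group the difference was 1.44, from a single library without a spread of its own.

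**Figure D3:**
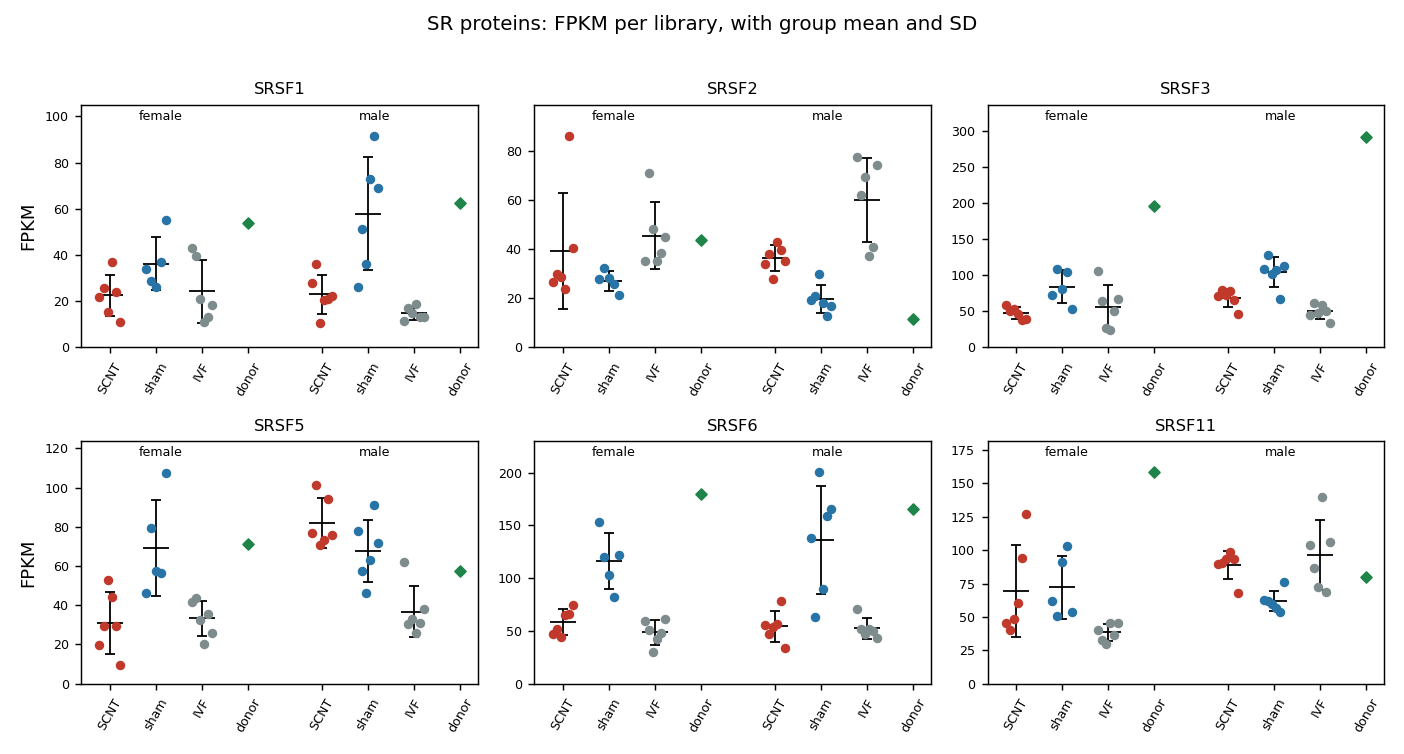
FPKM of 6 SR proteins in each library (vertical axis, from 0), in the order SCNT, sham, IVF and donor fibroblasts for females and then males; circles are single blastocysts, diamonds the single donor libraries, and bars the group mean and SD. In males SRSF1 is high and SRSF2 low in sham embryos without overlap with IVF, while SRSF5 is high in SCNT and sham embryos.

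Of the 18 hnRNPs, 2 passed in female sham blastocysts and 3 in male ones, near the share of all genes (13.5% in females, 12.1% in males). HNRNPH1, which binds G-rich RNA, passed in both sexes. It had 127, 143, 159, 141 and 299 FPKM in female sham embryos, against 65.1, 75.5 and 113 FPKM in female IVF (log2 fold change 0.99 ± 0.24, limma adjusted p = 0.0132). In males it had 124, 237 and 342 FPKM in sham and 84.0, 99.9 and 112 FPKM in IVF (1.14 ± 0.23, limma adjusted p = 0.00392). Neither sex showed an overlap. HNRNPF, of the same G-rich binding family, had 69.1, 129 and 209 FPKM in male sham, above all male IVF embryos at 35.7, 44.2 and 57.4 FPKM (1.39 ± 0.27, limma adjusted p = 0.00297). In females its log2 fold change was 0.52 ± 0.24 (adjusted p = 0.171). HNRNPM passed in females, with 32.9, 34.6, 53.7, 40.3 and 25.4 FPKM in sham and 7.36, 13.7 and 25.9 FPKM in IVF (1.30 ± 0.32, limma adjusted p = 0.0132), and only the lowest sham embryo lay inside the IVF range.

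HNRNPL was the hnRNP that fell, in males, with 135, 226 and 275 FPKM in sham against 318, 356 and 484 FPKM in IVF and no overlap (log2 fold change -0.81 ± 0.20, limma adjusted p = 0.0146). Female sham embryos had 159, 183, 214, 216 and 219 FPKM, against 199, 290.3 and 304 FPKM in female IVF (-0.48 ± 0.19, adjusted p = 0.113). HNRNPK, the most abundant member, did not pass in either sex (0.55 ± 0.27 and 0.33 ± 0.24 in females and males, adjusted p = 0.206 and 0.415).

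Of the 7 U1, U2 and U2AF genes, which act where the intron is recognised, 1 passed in each sex, about the share of all genes (13.5% in females, 12.1% in males). SNRPC, the U1 subunit that stabilises the pairing of U1 with the 5′ splice site, fell in female sham blastocysts to 8.30, 2.19, 6.41, 6.27 and 10.97 FPKM, against 13.5, 19.6 and 34.2 FPKM in female IVF. No embryo overlapped (log2 fold change -1.56 ± 0.35, limma adjusted p = 0.00788). In males it had 3.30, 6.68 and 17.3 FPKM in sham against 8.04, 17.7 and 32.3 FPKM in IVF (-1.13 ± 0.41, adjusted p = 0.0873). SNRPA, the U1 protein that binds a stem-loop of the U1 RNA, passed in males (8.60, 14.7 and 34.3 FPKM in sham, 24.6, 45.5 and 50.4 FPKM in IVF; -1.16 ± 0.34, limma adjusted p = 0.0331), with overlap. That call was lost without any 1 of male sham replicates 2, 3, 4 and 6 or male IVF replicates 3, 4, 5 and 6 (adjusted p up to 0.0774). The female difference for SNRPA, 0.65 ± 0.33, did not pass (adjusted p = 0.219). None of the 3 U2AF genes passed in either sex by limma. All 3 were under an unadjusted p of 0.05 in females, 1 above and 2 below IVF, and 0 in males, where 27.3% and 25.4% of all genes were.

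In the branch-point complexes 1 gene passed in both sexes. SF3B1, the large SF3B subunit that clamps the branch-point helix, had 204, 349, 393, 399 and 207 FPKM in female sham blastocysts, against 73.7, 101 and 116 FPKM in female IVF (log2 fold change 1.63 ± 0.24, limma adjusted p = 0.000410). Male sham embryos had 208, 299.8 and 419 FPKM, against 106, 111 and 175 FPKM in male IVF (1.27 ± 0.22, limma adjusted p = 0.00132). All 11 sham embryos lay above all 12 IVF embryos. The 2 other calls were lower values. SF3A1, a scaffold of SF3A, averaged 81.3 ± 16.6 FPKM in female sham (SD, n = 5) and 149 ± 50.3 FPKM in female IVF (SD, n = 6; limma adjusted p = 0.0481), a call lost without any 1 library other than female IVF replicate 4 (adjusted p up to 0.111). SF3B14, the older symbol of the branch-point protein SF3B6, averaged 49.7 ± 22.4 FPKM in male sham and 89.9 ± 15.9 FPKM in male IVF (SD, n = 6 each; limma adjusted p = 0.0285), lost without male sham replicate 4, male IVF replicate 2 or male IVF replicate 4 (adjusted p up to 0.0693).

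Of the 13 PRPF proteins, 4 were higher and 1 lower in sham in each sex, where 7.03% and 6.47% of all genes were higher and lower in females and 6.13% and 5.96% in males. PRPF3 and PRPF31, which bind the U4/U6 RNA pair within the tri-snRNP, passed in both. PRPF3 had 109, 117, 131, 159 and 99.4 FPKM in female sham embryos, against 39.8, 48.4 and 55.9 FPKM in female IVF (log2 fold change 1.33 ± 0.19, limma adjusted p = 0.000377), and 64.8, 111 and 158 FPKM in male sham against 33.5, 46.6 and 64.1 FPKM in male IVF (1.20 ± 0.22, limma adjusted p = 0.00240). Neither sex overlapped. PRPF31 had 82.4, 77.8, 74.0, 101 and 96.5 FPKM in female sham, against 28.7, 44.8 and 52.5 FPKM in female IVF (1.01 ± 0.21, limma adjusted p = 0.00434). In males it had 95.3, 146 and 209 FPKM in sham against 60.7, 76.9 and 97.2 FPKM in IVF (0.85 ± 0.23, limma adjusted p = 0.0195), where the lowest sham embryo fell inside the IVF range.

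PRPF4, the partner of PRPF3, passed in females with 137, 154, 147, 160.0 and 127 FPKM in sham against 54.7, 66.9 and 97.7 FPKM in IVF (log2 fold change 1.05 ± 0.19, limma adjusted p = 0.00234) and no overlap, and in males had 116, 131 and 151 FPKM against 80.4, 102 and 165 FPKM (0.27 ± 0.20, adjusted p = 0.446). PRPF18, a second-step factor at low level, averaged 10.1 ± 2.37 FPKM in female sham and 4.19 ± 3.67 FPKM in female IVF (SD, n = 5 and 6; limma adjusted p = 0.0361), and 14.7 ± 3.14 FPKM in male sham and 6.49 ± 4.66 FPKM in male IVF (SD, n = 6 each; limma adjusted p = 0.0302). Both calls were lost without most single libraries: in females without any 1 other than female sham replicate 2 or female IVF replicate 2 (adjusted p up to 0.0912), in males without any 1 of male sham replicates 4, 5 and 6 or male IVF replicates 2, 3, 5 and 6 (adjusted p up to 0.0709). PRPF39, a U1-associated protein, passed in males (50.5 ± 13.1 FPKM in sham, 27.3 ± 8.00 FPKM in IVF, SD, n = 6 each; limma adjusted p = 0.0225), lost without male sham replicates 5 or 6 or male IVF replicates 2 or 6 (adjusted p up to 0.0575).

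PRPF19, the ubiquitin ligase of the spliceosome-activating complex that bears its name, went the other way. Female sham embryos had 72.5, 38.3, 55.7, 57.0 and 41.6 FPKM, against 84.4, 102 and 166 FPKM in female IVF (log2 fold change -1.07 ± 0.23, limma adjusted p = 0.00598). Male sham embryos had 28.1, 45.3 and 49.6 FPKM, against 54.0, 65.7 and 84.2 FPKM in male IVF (-0.66 ± 0.20, limma adjusted p = 0.0392). The groups did not overlap in either sex. The male call was lost without any 1 of male sham replicates 2, 4, 5 and 6 or male IVF replicates 1, 2, 4 and 5 (adjusted p up to 0.0891).

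The Sm ring, which is assembled from 7 different proteins on the U1, U2, U4 and U5 snRNAs, was not shifted as a unit. SNRPG, which encodes SmG, fell in sham blastocysts to 50.4, 64.4, 65.1, 36.7 and 53.6 FPKM in females, against 169.7, 245 and 371 FPKM in female IVF (log2 fold change -2.18 ± 0.24, limma adjusted p = 4.86e-05). In males it had 26.4, 46.3 and 65.8 FPKM in sham, against 106, 154 and 195 FPKM in IVF (-1.77 ± 0.23, limma adjusted p = 0.000135). Every sham embryo of each sex was below every IVF embryo.

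SNRPD1, which encodes SmD1, rose in female sham on its second row: 98.3, 157, 162, 141 and 172 FPKM, against 50.9, 68.0 and 93.4 FPKM in female IVF, without overlap (log2 fold change 1.05 ± 0.21, limma adjusted p = 0.00361). SNRPB, which encodes SmB, had 49.3, 52.4, 40.9, 36.1 and 24.3 FPKM in female sham against 8.18, 19.96 and 31.4 FPKM in female IVF (1.07 ± 0.33, limma adjusted p = 0.0410), where the lowest sham embryo lay inside the IVF range. The SNRPB call was lost without any 1 of female sham replicates 1, 2, 3 and 4 or female IVF replicates 2, 4 and 6 (adjusted p up to 0.101). In males 3 sham embryos had 64.1 to 77.3 FPKM of SNRPB and 3 had 10.4 to 18.0 FPKM, against 4.59 to 18.0 FPKM in male IVF, and the log2 fold change of 1.43 ± 0.51 did not pass (adjusted p = 0.0806).

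SNRPD3, for SmD3, fell in both sexes: 10.5 ± 4.40 FPKM in female sham and 25.4 ± 13.2 FPKM in female IVF (SD, n = 5 and 6; limma adjusted p = 0.0426), 12.9 ± 7.41 FPKM in male sham and 34.8 ± 15.1 FPKM in male IVF (SD, n = 6 each; limma adjusted p = 0.0184). The groups overlapped in both sexes, and the female call was lost without any 1 of female sham replicates 2, 3 and 4 or female IVF replicates 1, 2, 3, 5 and 6 (adjusted p up to 0.1095). SNRPE, for SmE, passed in females (7.72, 50.8, 19.2, 7.90 and 5.02 FPKM in sham, 21.5, 39.1 and 75.9 FPKM in IVF; log2 fold change -1.58 ± 0.50, limma adjusted p = 0.0484). Its call was lost without any 1 of female sham replicates 1, 3, 4 and 5 or female IVF replicates 1, 2, 3 and 6 (adjusted p up to 0.117).

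The order of the ring genes therefore differed between the groups. SNRPG was the most abundant in IVF and in SCNT blastocysts of both sexes and SNRPB the least (the first SNRPD1 row set aside), whereas the second row of SNRPD1 was highest and SNRPD3 lowest in sham blastocysts of both sexes. The ratio of SNRPG to SNRPB, chosen after the values were seen, was 1.02 to 2.21 in female sham against 6.88 to 28.7 in female IVF, and 0.412 to 3.92 in male sham against 6.56 to 29.2 in male IVF. It was 6.47 to 21.6 in female SCNT and 4.00 to 26.5 in male SCNT, and 0.952 and 0.163 in the female and male donor cells.

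**Figure D4:**
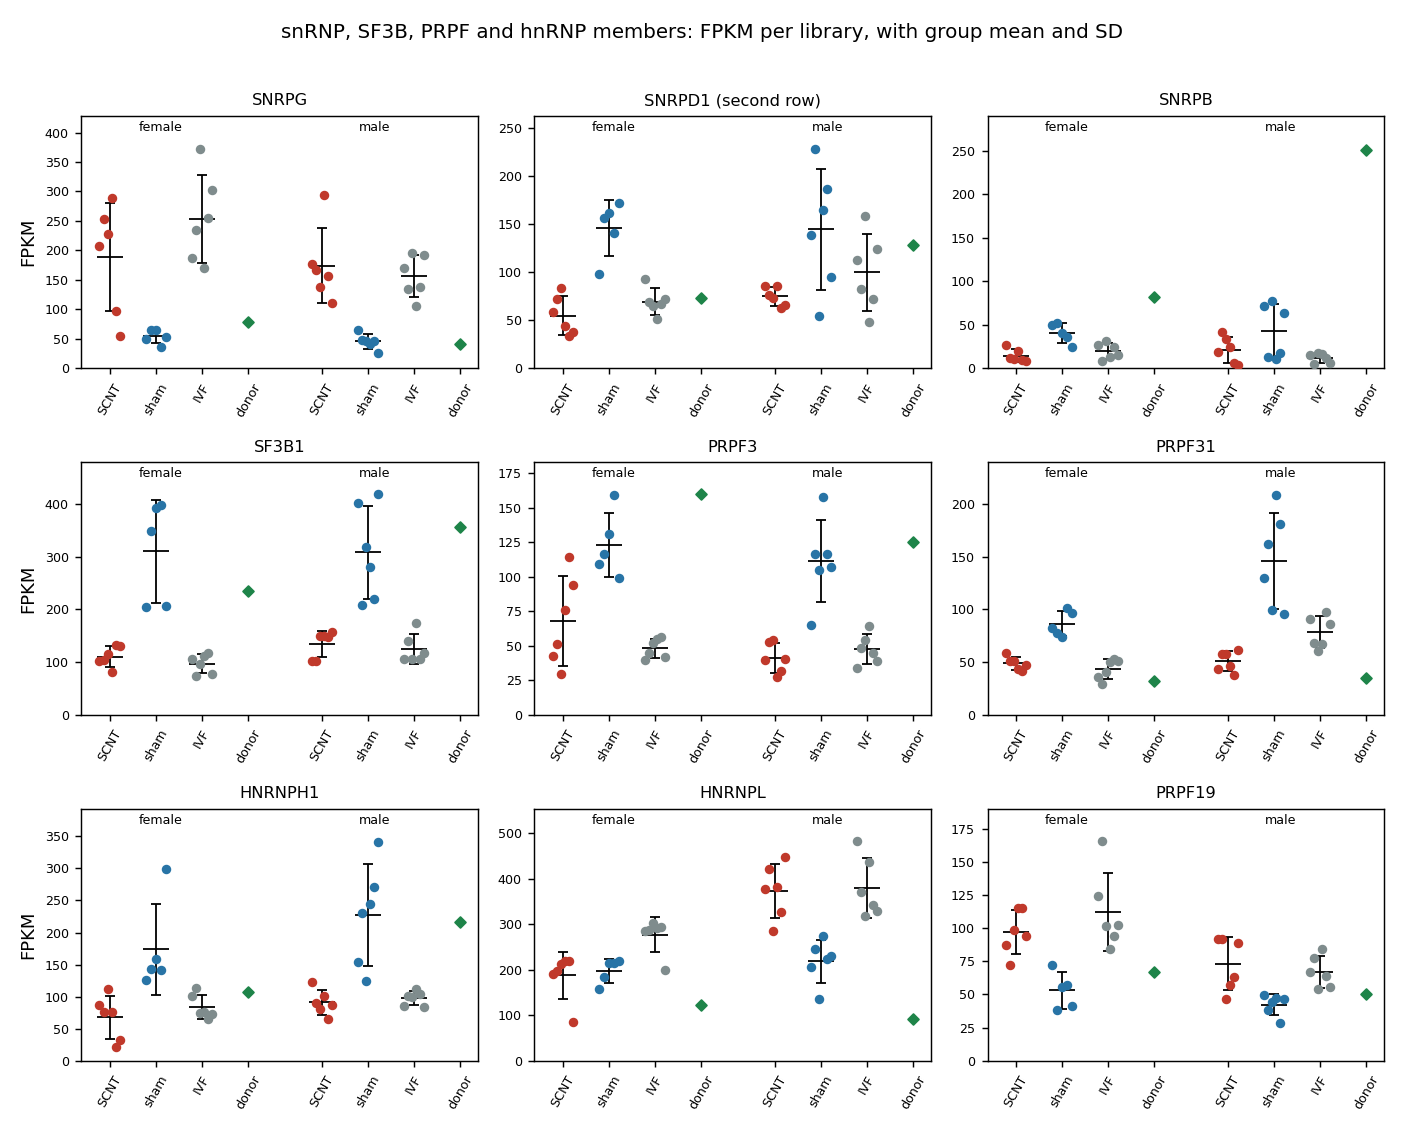
FPKM of 9 snRNP, SF3B, PRPF and hnRNP members in each library (vertical axis, from 0), in the order SCNT, sham, IVF and donor fibroblasts for females and then males; circles are single blastocysts, diamonds the donor libraries, and bars the group mean and SD. SNRPG and PRPF19 are low and SF3B1, PRPF3 and HNRNPH1 high in sham embryos, without overlap with IVF in either sex.

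Most male sham libraries had a low share of mapped reads in the study's own summary, with 1 exception, replicate 2. When male sham replicate 2 alone stood for its group, all 18 members called in males against IVF kept their sign. Fewer members passed than with the whole group. A single library gives no spread of its own, so the number passing is not given.

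SCNT blastocysts were set against IVF to ask how cloned embryos differ from fertilized ones. In females no member passed. In males 9 did, 5 higher and 4 lower, with the lowest adjusted p for SRSF5. The female result was 0 of 65 by limma, where 0.321% of all genes passed. It was also 0 of 65 with female SCNT replicates 5 and 6 both left out and in each other fit. At an unadjusted p under 0.05 there were 8 members, 2 higher and 6 lower, where 10.9% of all genes were, so that the share of the members was near that of all genes. The median log2 fold change over the 65 was -0.16 in females, against -0.04 over all genes. The groups overlapped for all 65, where 0.852% and 0.531% of all genes were higher and lower without overlap.

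The 8 female members under the unadjusted threshold are given as values. PRPF4B, a kinase that acts on the tri-snRNP, averaged 53.4 FPKM in female SCNT and 34.4 FPKM in female IVF, and SRSF11 69.4 and 38.4 FPKM in the same order. SNRPD2 (SmD2) had 8.01, 11.5 and 42.7 FPKM in female SCNT as lowest, median and highest, against 18.5, 29.4 and 71.8 FPKM in female IVF (log2 fold change -1.16 ± 0.39, adjusted p = 0.253), the lowest adjusted p of the 65. HNRNPL had 85.9, 206 and 219.7 FPKM in female SCNT against 199, 290.3 and 304 FPKM in female IVF (-0.61 ± 0.24, adjusted p = 0.361). SNRPA1, a U2 snRNP protein, U2AF2, which binds the polypyrimidine tract, and the hnRNPs HNRNPA2B1 and HNRNPD were also lower on average, with adjusted p between 0.408 and 0.446.

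In males 9 of 65 members passed, where 6.98% of all genes did (3.34% higher, 3.64% lower). For 3 members, all higher, the groups did not overlap, where 1.93% and 2.33% of all genes were higher and lower without overlap. SRSF5 had 70.6, 76.3 and 101 FPKM in male SCNT as lowest, median and highest, against 25.6, 32.0 and 62.0 FPKM in male IVF, with no overlap (log2 fold change 1.18 ± 0.20, limma adjusted p = 0.00247). The call held when any 1 library was left out.

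A further 7 male calls were less steady. HNRNPC, which binds uridine tracts, had 83.2, 147 and 171 FPKM in male SCNT against 45.0, 73.3 and 105 FPKM in male IVF (log2 fold change 0.89 ± 0.23, limma adjusted p = 0.0256). PRPF38A and PRPF38B, which take part in activating the spliceosome, averaged 14.9 ± 2.99 and 68.7 ± 13.3 FPKM in male SCNT, against 8.10 ± 1.04 and 40.1 ± 11.2 FPKM in male IVF (SD, n = 6 each; limma adjusted p = 0.0351 and 0.0235). The PRPF38A groups did not overlap. Lower in SCNT were SNRPF (SmF; 35.3 ± 8.61 FPKM in male SCNT, 63.7 ± 18.0 FPKM in male IVF), SF3A2 (31.7 ± 12.4 and 59.3 ± 17.4 FPKM), SF3B4 (168 ± 38.2 and 271 ± 79.5 FPKM) and PRPF31 (50.6 ± 9.64 and 78.3 ± 14.96 FPKM), all SD, n = 6 each, with limma adjusted p between 0.0238 and 0.0478.

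Without 1 library the number of male members called ranged from 3 to 8, and it was 5 or fewer without any 1 of male SCNT replicates 1, 3, 4, 5 and 6 or male IVF replicates 2 and 6. The single calls were lost as follows, with adjusted p up to 0.0972. PRPF38B was lost without male SCNT replicates 5 or 6, and SNRPF without male SCNT replicates 3 or 5 or male IVF replicate 2. HNRNPC was lost without male SCNT replicates 4, 5 or 6 or male IVF replicates 2, 5 or 6. PRPF31 was lost without male SCNT replicates 1, 3, 4 or 5 or male IVF replicates 1, 2, 5 or 6, PRPF38A without male SCNT replicates 1, 2, 4 or 6 or male IVF replicates 1, 2, 5 or 6, and SF3A2 without male SCNT replicates 1, 3, 4, 5 or 6 or male IVF replicates 1, 4 or 6. SF3B4 was lost without any 1 library other than male SCNT replicate 6 or male IVF replicate 5. With every library scaled to the same median, 5 were higher and 2 lower, and PRPF31 and SF3B4 did not pass.

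The male SCNT and the male sham comparisons share the IVF embryos. SRSF5 was higher than IVF in both (1.18 ± 0.20 in SCNT, 0.89 ± 0.23 in sham), while PRPF31 was lower in SCNT (-0.62 ± 0.18, limma adjusted p = 0.0435) and higher in sham (0.85 ± 0.23, limma adjusted p = 0.0195).

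A difference between the sexes in the effect of SCNT was tested as an interaction, in which sex and flow cell cannot be told apart. By limma 0 of 65 members passed, where 1.91% of all genes did, and 12 were under an unadjusted p of 0.05, 5 of them with a positive and 7 with a negative value (female effect minus male effect), where 15.2% of all genes were under it. The lowest adjusted p were those of SRSF5 (-1.42 ± 0.41, adjusted p = 0.0701), HNRNPC (-1.18 ± 0.35, adjusted p = 0.0751) and PRPF31 (0.83 ± 0.25, adjusted p = 0.0890). SRSF5 had 9.60, 29.3 and 52.8 FPKM in female SCNT against 20.2, 34.1 and 43.7 FPKM in female IVF, where the male SCNT embryos all lay above the male IVF embryos. Leaving out female SCNT replicate 3, female SCNT replicate 4 or male SCNT replicate 3 gave 1 member past the threshold. For sham against IVF, SNRPA was next after SRSF11 (1.81 ± 0.49, adjusted p = 0.0682).

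SCNT blastocysts were also set against sham blastocysts, which had been manipulated and activated but carried the zygote's own pronuclei. SNRPG and PRPF19 were higher in SCNT than in sham in both sexes, and SRSF6, SF3B1, PRPF31, HNRNPH1, HNRNPM and SNRPF were lower in both. That is 12.3% of the 65 members, against 4.16% of the 14022 genes tested in both sexes. In females 17 of 65 members passed, 4 higher and 13 lower, where 11.3% of all genes passed (5.21% higher, 6.07% lower), and in males 17 of 65, 7 higher and 10 lower, where 11.8% passed (5.67% higher, 6.13% lower). The groups did not overlap for 12 members in females (2 higher, 10 lower) and 9 in males (4 higher, 5 lower), where 4.08% and 4.41% of all genes were non-overlapping in females as higher and lower, and 2.95% and 3.44% in males. These comparisons share the sham embryos with those of sham against IVF. With male sham replicate 2 alone, all 17 members called in males kept their sign, and fewer passed.

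SNRPG had 55.5, 218 and 289 FPKM in female SCNT as lowest, median and highest, against 50.4, 64.4, 65.1, 36.7 and 53.6 FPKM in female sham (log2 fold change 1.60 ± 0.38, limma adjusted p = 0.01204). Female SCNT replicate 6 alone lay within the sham range. In males SNRPG had 110.5, 162 and 294 FPKM in SCNT against 26.4, 46.3 and 65.8 FPKM in sham, without overlap (1.89 ± 0.25, limma adjusted p = 0.000191). SF3B1 had 80.4, 109 and 132 FPKM in female SCNT, below all female sham embryos at 204 to 399 FPKM (-1.44 ± 0.25, limma adjusted p = 0.00189), and 101, 148 and 156 FPKM in male SCNT, below all male sham embryos at 208 to 419 FPKM (-1.17 ± 0.22, limma adjusted p = 0.00270).

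PRPF31 was below every sham embryo in both sexes, with 41.6 to 58.8 FPKM in female SCNT against 74.0 to 101 FPKM in female sham (log2 fold change -0.81 ± 0.19, limma adjusted p = 0.0126) and 37.7 to 61.8 FPKM in male SCNT against 95.3 to 209 FPKM in male sham (-1.47 ± 0.23, limma adjusted p = 0.000602). PRPF4 and SNRPD1 were lower in SCNT in females alone (-1.23 ± 0.18 and -1.45 ± 0.26, limma adjusted p = 0.000914 and 0.00271), and PRPF3 in males alone (-1.42 ± 0.24, limma adjusted p = 0.00104), with no test of the difference between the sexes. HNRNPC was higher in male SCNT than in male sham, with 83.2, 147 and 171 FPKM against 34.9, 64.2 and 73.4 FPKM and no overlap (1.24 ± 0.23, limma adjusted p = 0.00212).

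SNRPC, higher in female SCNT than in female sham, had 13.8, 21.4 and 25.9 FPKM against 8.30, 2.19, 6.41, 6.27 and 10.97 FPKM, without overlap (log2 fold change 1.52 ± 0.34, limma adjusted p = 0.00962). SNRPF was lower in SCNT by -0.90 ± 0.28 in females (limma adjusted p = 0.0487) and -1.48 ± 0.34 in males (limma adjusted p = 0.00926). The female SNRPF call was lost without any 1 of female SCNT replicates 1, 2, 3 and 6 or female sham replicates 1, 3, 4 and 5 (adjusted p up to 0.112). The female HNRNPH1 call was lost without female sham replicate 5 (adjusted p = 0.0575) and the female PRPF19 call without female sham replicate 2 (adjusted p = 0.0533). The male calls for PRPF19 and HNRNPM were lost without any 1 of male SCNT replicates 1, 2, 5 and 6 or male sham replicates 2, 4, 5 and 6, and of male SCNT replicates 3, 4 and 5 or male sham replicates 1, 2 and 4 (adjusted p up to 0.0901 and 0.0742).

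The other members lower in SCNT than in sham blastocysts of both sexes were SRSF6, HNRNPH1 and HNRNPM. SRSF6 had 44.3 to 75.0 FPKM in female SCNT against 81.7 to 153 FPKM in female sham (log2 fold change -0.98 ± 0.22, limma adjusted p = 0.0106), without overlap, and 33.9 to 77.9 FPKM in male SCNT against 62.7 to 200.1 FPKM in male sham (-1.25 ± 0.28, limma adjusted p = 0.00736). HNRNPH1 had 20.9 to 111 FPKM in female SCNT against 127 to 299 FPKM in female sham, and 65.4 to 123.5 FPKM in male SCNT against 124.5 to 342 FPKM in male sham (limma adjusted p = 0.0219 and 0.00333). HNRNPM had 9.55 to 19.6 FPKM in female SCNT, below the 25.4 to 53.7 FPKM of female sham (-1.29 ± 0.26, limma adjusted p = 0.00467), and 8.39 to 22.8 FPKM in male SCNT against 20.5 to 40.5 FPKM in male sham (-0.97 ± 0.28, limma adjusted p = 0.0313).

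The rest passed in 1 sex. In females SNRPB was lower in SCNT (8.58 to 27.1 FPKM, against 24.3 to 52.4 FPKM in sham; log2 fold change -1.49 ± 0.32, limma adjusted p = 0.00699), and so were SRSF5, SRSF3, SF3B3 and HNRNPA2B1, with fold changes between -1.26 and -0.69 and limma adjusted p between 0.0356 and 0.0439. U2AF1L4, a relative of U2AF1, was higher (1.02, limma adjusted p = 0.0307). Each of these last 5 calls was lost when certain single libraries were left out, the number of such libraries out of 11 being 7 for SRSF5, 8 for SRSF3, 10 for SF3B3, 5 for HNRNPA2B1 and 6 for U2AF1L4 (adjusted p up to 0.106). The libraries were female SCNT replicates 1, 2 and 5 and female sham replicates 2 to 5 for SRSF5, female SCNT replicates 2 to 6 and female sham replicates 2 to 4 for SRSF3, any but female sham replicate 3 for SF3B3, female SCNT replicate 1 and female sham replicates 1, 2, 3 and 5 for HNRNPA2B1, and female SCNT replicates 1, 2 and 4 and female sham replicates 3 to 5 for U2AF1L4.

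In males SF3B14 was higher in SCNT, with 92.3, 99.5 and 114.6 FPKM against 22.1, 44.4 and 88.1 FPKM in sham and no overlap (log2 fold change 1.13 ± 0.26, limma adjusted p = 0.00878). HNRNPL was higher too, at 285 to 449 FPKM in SCNT against 135 to 275 FPKM in sham (0.78 ± 0.21, limma adjusted p = 0.0196), as was SRSF2 at 28.0 to 43.0 FPKM against 12.7 to 29.9 FPKM (0.89 ± 0.22, limma adjusted p = 0.0141). SRSF1 was lower, at 10.5 to 35.9 FPKM in SCNT against 26.1 to 91.4 FPKM in sham (-1.26 ± 0.32, limma adjusted p = 0.0175), as was HNRNPF at 41.5 to 72.3 FPKM against 69.1 to 209 FPKM (-1.16 ± 0.28, limma adjusted p = 0.0121). SNRPE was higher by 1.72 ± 0.52 (limma adjusted p = 0.0390) and PRPF39 lower, at -0.71 ± 0.21 (limma adjusted p = 0.0327). These last calls were lost without any 1 of male SCNT replicates 2, 3, 5 and 6 or male sham replicates 4, 5 and 6 for SNRPE, and of male SCNT replicates 1 to 4 or male sham replicates 4, 5 and 6 for PRPF39 (adjusted p up to 0.0863 and 0.0741). SNRPB2, the most abundant of the U1 and U2 proteins, passed in no comparison.

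Summed over the 65 members, FPKM averaged 4209 ± 492 in female SCNT, 5337 ± 249 in female sham and 4552 ± 491 in female IVF (SD, n = 6, 5 and 6), and 4656 ± 435 in male SCNT, 5938 ± 704 in male sham and 4970 ± 431 in male IVF (SD, n = 6 each). In relation to IVF the sham sums were 1.17 times in females and 1.19 times in males. As a share of the summed FPKM of the library, female sham embryos were at 0.991% and female IVF embryos at 1.01%, a ratio of 0.985, so that the higher female sum went with the higher library sum. The hnRNPs made up the largest part of the sum, at 1435 ± 121 FPKM in female SCNT, 2124 ± 444 FPKM in female sham and 1754 ± 292 FPKM in female IVF (SD, n = 6, 5 and 6). HNRNPK alone took a median of 37.7%, 48.9% and 43.3% of it in the same order. The Sm ring summed to 372 ± 40.7 FPKM in female sham and 520 ± 110.0 FPKM in female IVF (SD, n = 5 and 6), SNRPG making up a median of 15.1% and 52.4% of it.

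The SCNT blastocysts were lastly set against the fibroblasts that gave the nuclei, as 1 library for each sex, so without a test. More members were 2-fold lower than 2-fold higher in the embryos, as were more of all genes. In females 8 of 65 members were at least 2-fold higher in the SCNT mean and 25 at least 2-fold lower, where 22.1% and 28.8% of all genes were. In males 13 were higher and 18 lower, where 20.9% and 27.7% of all genes were. The median log2 ratio over the members was -0.52 in females and -0.17 in males, against -0.02 over all genes in both. In both sexes 14 members were 2-fold lower and 4 (SNRPG, SNRPA, SNRPC and U2AF1) 2-fold higher, and none was 2-fold in opposite directions. The share of all genes past 2-fold in both sexes was not computed, so these counts have nothing to be set against.

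The Sm ring had the lowest median log2 ratio of any role group in both sexes (-1.27 in females, -1.43 in males), and the SR proteins had -1.19 in females and 0.17 in males. The 10 SR proteins summed to 360 ± 51.4 FPKM in female SCNT and 462 ± 57.6 FPKM in male SCNT (SD, n = 6 each), against 883 and 784 FPKM in the female and male donor cells. SRSF3 had 37.1 to 59.1 FPKM in female SCNT against 195 FPKM in the donor cells, and 45.7 to 80.0 FPKM in male SCNT against 292 FPKM. SRSF4, a larger SR protein, had 3.27 to 12.54 FPKM in female SCNT against 57.3 FPKM in the donor cells. SRSF6 had 44.3 to 75.0 FPKM in female SCNT against 179.6 FPKM, and 33.9 to 77.9 FPKM in male SCNT against 165 FPKM.

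In the Sm ring SNRPD2 had 8.01 to 42.7 FPKM in female SCNT against 289 FPKM in the donor cells, the largest difference of any member (log2 ratio of the means, each plus 1, of -4.02). SNRPB had 8.58 to 27.1 FPKM in female SCNT against 82.4 FPKM in female donor cells, and 4.17 to 41.8 FPKM in male SCNT against 251 FPKM in male donor cells. SNRPE had 16.8 to 39.5 FPKM against 190.4 FPKM in females and 20.8 to 67.9 FPKM against 212 FPKM in males. All these donor values lay above every SCNT embryo. SNRPG went the other way: male SCNT embryos had 110.5 to 294 FPKM, all above the 40.9 FPKM of the male donor cells, and female SCNT embryos had 55.5 to 289 FPKM, 5 of 6 above the 78.4 FPKM of the female donor cells.

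PRPF18 (1.32 to 8.49 FPKM in female SCNT, 57.5 FPKM in the donor cells) and, in males, SF3B5, SF3A2 and HNRNPA3 (donor cells at 151, 159 and 235 FPKM, SCNT means of 28.8, 31.7 and 52.0 FPKM) were the other members with the widest gap below the donor cells. Higher in the embryos were the U1 proteins SNRPC (13.8 to 25.9 FPKM in female SCNT, 1.67 FPKM in the donor cells) and SNRPA (18.4 to 57.6 FPKM in female SCNT against 6.51 FPKM, 17.6 to 33.6 FPKM in male SCNT against 5.54 FPKM). PRPF8 had 292 to 912 FPKM in female SCNT against 82.0 FPKM in the donor cells, and 234 to 362 FPKM in male SCNT against 199 FPKM. HNRNPL had 285 to 449 FPKM in male SCNT against 91.2 FPKM. HNRNPUL1 in females (mean 143 FPKM in SCNT, 63.5 FPKM in the donor cells) and SNRPD3 and PRPF38A in males (25.1 and 14.9 FPKM in SCNT, 6.52 and 3.62 FPKM in the donor cells) completed the 5 largest in each sex.

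**Figure D5:**
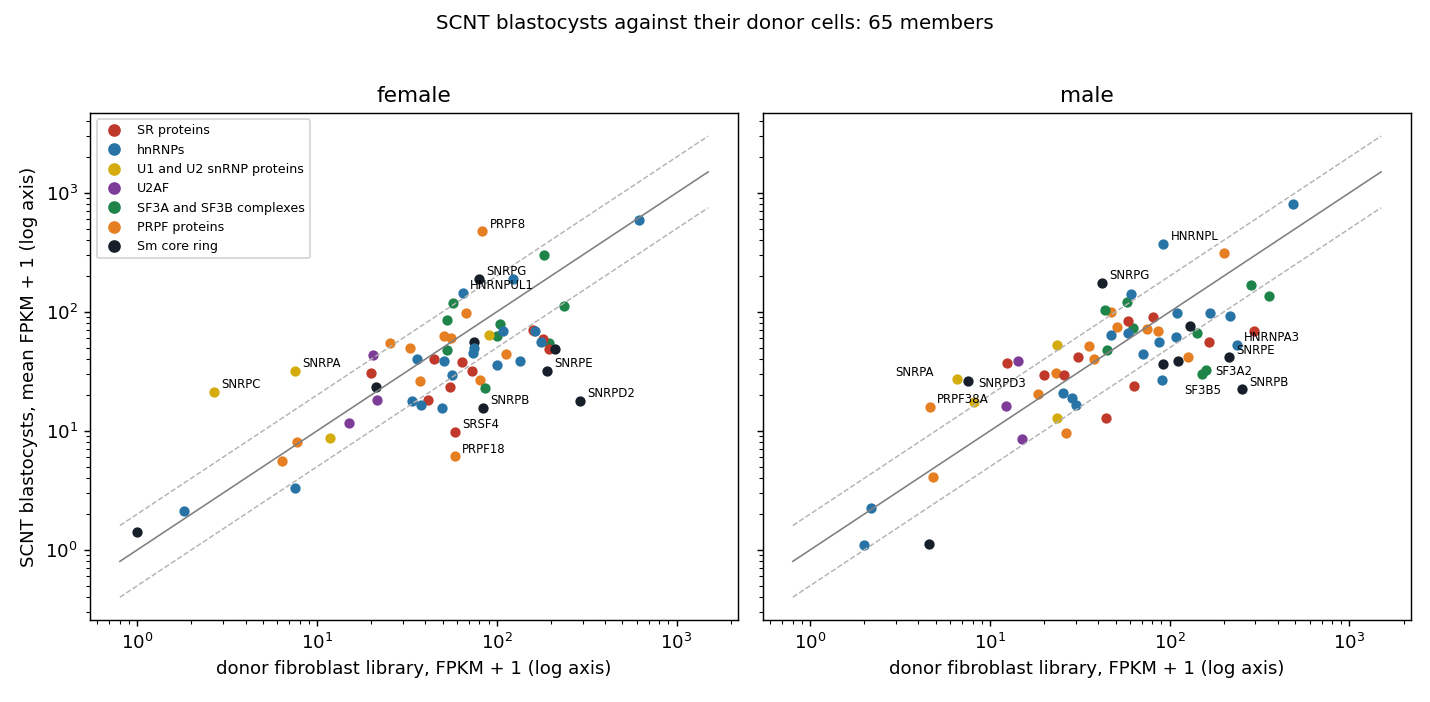
Mean FPKM + 1 of the 6 SCNT blastocysts of a sex (vertical, log axis) against FPKM + 1 of the donor fibroblast library of that sex (horizontal, log axis) for 65 members, coloured by role; the solid line marks equal levels and the dashed lines 2-fold, and the 5 members farthest from equality in each direction are named. More members lie below the lower dashed line (25 in females, 18 in males) than above the upper one (8 and 13).

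Other genes of the splicing pathway, from 4 lists that do not overlap the members, were read in the same 2 comparisons, where 7.03% and 6.47% of all genes were higher and lower in females and 6.13% and 5.96% in males. Of 47 rows of other spliceosome genes (46 symbols), 11 were higher and 2 lower in female sham than in female IVF, and 7 higher and 6 lower in male sham than in male IVF. PLRG1 and BCAS2, partners of PRPF19 in its complex, were higher in sham: PLRG1 at 299 ± 126 FPKM in female sham against 96.6 ± 28.4 FPKM in female IVF and 492 ± 249 FPKM in male sham against 149.6 ± 21.6 FPKM in male IVF, and BCAS2 at 264 ± 54.0 FPKM against 138 ± 33.3 FPKM and 292 ± 107 FPKM against 128 ± 27.0 FPKM (SD, n = 5 and 6 in females, 6 each in males). The helicase gene DDX23 was at 132 ± 39.3 FPKM in female sham against 43.6 ± 7.99 FPKM in female IVF, and at 162 ± 56.2 FPKM in male sham against 49.5 ± 6.16 FPKM in male IVF (SD, same n). LSM3, of the ring on U6, was lower, with log2 fold changes of -1.95 ± 0.52 and -1.57 ± 0.41 (limma adjusted p = 0.0205 and 0.0179). Not every listed gene linked to the PRPF19 complex was higher. CWC15 averaged 20.7 FPKM in male sham against 61.3 FPKM in male IVF (-1.54 ± 0.23, limma adjusted p = 0.000416). It did not pass in females, and CDC5L passed in neither sex.

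Among 14 genes of the exon junction core and of snRNP assembly, PRMT5, the methyltransferase that prepares Sm proteins for assembly, was at 217 ± 77.3 FPKM in female sham and 34.5 ± 7.41 FPKM in female IVF (SD, n = 5 and 6; log2 fold change 2.56 ± 0.25, limma adjusted p = 3.51e-05). In males it was at 258 ± 136 FPKM in sham and 49.5 ± 9.55 FPKM in IVF (SD, n = 6 each; 2.24 ± 0.28, limma adjusted p = 9.92e-05), with no overlap in either sex. CLNS1A, its partner that chaperones Sm proteins, was lower in sham (-0.99 ± 0.29 and -0.80 ± 0.23, limma adjusted p = 0.0358 and 0.0331). In all 5 of the 14 were higher and 1 lower in female sham, and 2 higher and 1 lower in male sham. Of 7 splicing kinases CLK1, which phosphorylates SR proteins, was higher in both sexes (10.3 ± 3.30 FPKM in female sham, 2.36 ± 0.9604 FPKM in female IVF; 13.2 ± 9.11 FPKM in male sham, 2.60 ± 1.93 FPKM in male IVF), and CLK3 was lower in females. Of 34 other splicing regulators 4 were higher and 5 lower in female sham and 3 higher and 2 lower in male sham, TRA2A and RBM5 being higher and RALY lower in both sexes.

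For SCNT against IVF the same lists gave no call in females by limma, with 3 of 47, 6 of 34, 0 of 7 and 3 of 14 genes under an unadjusted p of 0.05, where 10.9% of all genes were. In males, where 3.34% and 3.64% of all genes were higher and lower, they gave 2 higher and 2 lower spliceosome genes, 3 higher and 3 lower regulators, 1 higher and 1 lower kinase and 2 higher and 1 lower gene of assembly. PRMT5 was at 38.1 ± 7.50 FPKM in female SCNT and 49.2 ± 13.2 FPKM in male SCNT (SD, n = 6 each), below every sham embryo of the same sex.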

How the data were processed

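Single-embryo poly(A) RNA was amplified by pico-profiling and sequenced as paired reads. The deposited values are FPKM per gene and library; according to the submitters' processing notes and the methods, the authors trimmed reads with Trim Galore, aligned them with TopHat to UMD3.1 and estimated FPKM for known transcripts with Cufflinks. Versions are not given in the sources used here. Strand was not stated, and how reads of near-identical genes were shared was not stated either. Amplification from single embryos can distort levels, and FPKM are relative to the rest of each library. Cuffdiff, which the study used for testing, needs reads and could not be run on FPKM.

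Members were chosen by symbol. The members, role groups and lists were chosen with earlier results of these data known. Groups follow the sample labels. Values were used as log2(FPKM + 1), and genes with a mean above 0.1 FPKM in the libraries compared were tested with limma 3.58.1 in R 4.3.3 (eBayes with trend), libraries of the compared groups only, with Benjamini-Hochberg adjustment over all genes and a threshold of 0.05. Standard errors are limma's. Fold changes on this scale understate those of low genes. Replicates are separate embryos, and for SCNT of a sex embryos of the same donor cells. Text names members past the threshold (up to 15 per direction), the most abundant member of each role, the 5 largest differences from donor cells per direction and sex, and members past the threshold in the interactions. The values of 1 member are not reported here, and it is counted among the 65. Genes under an unadjusted p of 0.05 in females, and ratios of 2 members, were added after their values were seen. Alternatives were a pseudocount of 0.1, a mean above 1 FPKM, no filter, median scaling, all 6 groups in one fit, a replicate block, and each library left out. Leaving out female SCNT replicates 5 and 6, and male sham replicate 2 alone, were chosen after seeing the data. The test was tried on simulated data. Of the 64 symbols, 62 matched the RefSeq gene table by symbol and 1 by synonym.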

Additional observations from a re-analysis of the deposited data

Results flagged for a closer look

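Of 264 groups of values (44 named members in 6 groups), 26 held 1 embryo far from the rest of its group. Chance gives about 1 in 20 for independent, normally distributed values. Whether FPKM are so distributed was not tested, and members of 1 library are not independent. The number is therefore not set against chance. Of these 26, 13 were in female SCNT embryos. Female SCNT replicate 5 was high for HNRNPK (878 FPKM, nearest other 564), PRPF39 (54.5), SF3A2 (116), SNRPB2 (148), SNRPD2 (42.7), SRSF2 (86.3) and U2AF1 (65.4 FPKM). Female SCNT replicate 6 was low for HNRNPA2B1 (14.8), HNRNPL (85.9) and SF3B14 (29.0 FPKM) and high for PRPF4B (90.0) and PRPF8 (912 FPKM, nearest other 473). Female SCNT replicate 4 was high for U2AF2 (13.4 FPKM).

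Among the other female embryos, sham replicate 5 was high for HNRNPH1 (299 FPKM) and sham replicate 1 for SNRPB2 (55.3 FPKM), while IVF replicate 2 was high for PRPF18 (11.6), SNRPF (127.5) and SRSF2 (71.3 FPKM) and IVF replicate 6 low for HNRNPL (199 FPKM). Among male embryos, SCNT replicate 2 was high for SF3A2 (55.4), SCNT replicate 4 for SNRPG (294) and U2AF1L4 (25.1 FPKM), and SCNT replicate 6 low for SRSF11 (68.0 FPKM). IVF replicate 1 was high for SRSF5 (62.0) and SRSF6 (70.9), and IVF replicate 3 for PRPF38B (61.2 FPKM).

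The effect of sham against IVF on SRSF11 differed between the sexes by 1.45 on the log2 scale (limma interaction, adjusted p = 0.00830), with 5 of 5 female sham embryos above every female IVF embryo. Sex and flow cell cannot be told apart in this difference, and most male sham libraries had a low share of mapped reads.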

How the results depend on the processing

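No fold change of a called member changed direction under any alternative. The ratio of summed FPKM for female sham over IVF did, from 1.17 to 0.985 as a share of the library. For male SCNT against male IVF 5 members passed with all 6 groups in one fit, against 9, and the sham interaction gave 2 members, against 1. With male sham replicate 2 alone, chosen after seeing the data, every called member kept its sign and fewer passed. The numbers passing are not given for a single library. The summed FPKM as a share of the library gave ratios of 0.985 for female sham over IVF (against 1.17) and 0.901 for female SCNT over sham (against 0.789). Leaving out 1 library gave 3 to 8 members for male SCNT against IVF, 12 to 18 for female sham against IVF, 14 to 21 for male sham against IVF, 12 to 18 and 13 to 19 for female and male SCNT against sham, 0 to 1 and 1 to 2 for the SCNT and sham interactions, and 0 throughout for female SCNT against IVF. Over all genes, female SCNT against IVF called 49 genes, 75 with a mean above 1 FPKM, 1 with no filter, 136 with all 6 groups in one fit and 1 to 57 with 1 library left out. Fewer of all genes also passed with male sham replicate 2 alone, and those numbers are likewise not given. The SCNT interaction called 181 without female SCNT replicates 5 and 6, against 295. Scaling to the same median moved the median female fold change of sham against IVF by 0.13 on the log2 scale.

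The replicate numbers did not pair the embryos: deviations of same-numbered embryos correlated between -0.239 and 0.0767, none over 0.1. A fit with the replicate block called 2 members for male SCNT against IVF, 10 for female sham against IVF, 14 for male sham against IVF, 8 and 13 for female and male SCNT against sham, 1 for the sham interaction and 0 for the others. Over all genes it called 20, 652, 1306 and 1060 for female SCNT against IVF, male SCNT against IVF, female sham against IVF and female SCNT against sham, against 49, 1040, 2061 and 1706. Depth cannot be read from FPKM, so no limit of detection is given.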

Other observations

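Embryos of 1 group differed among themselves more in some splicing genes than in others. Over the 59 members above 10 FPKM on average, the median coefficient of variation was 35.4% in female SCNT, 29.9% in female sham, 32.4% in female IVF, 24.4% in male SCNT, 34.3% in male sham and 25.9% in male IVF. The steadiest members were U2AF2 in female SCNT (12.6%), PRPF4 in female sham (9.002%), PRPF39 in female IVF (12.6%), SF3B14 in male SCNT (8.98%), HNRNPUL1 in male sham (7.72%) and HNRNPA2B1 in male IVF (9.81%). The most variable were SNRPD2 in female SCNT (76.9%), SNRPE in female sham (105%), SF3B5 in female IVF (67.2%), SNRPA1 in male SCNT (70.4%), U2AF1L4 in male sham (113%) and SNRPB2 in male IVF (59.8%).

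Members also differed in proportion to each other. SF3B1 was at 2.61 to 5.85 times SF3A1 in female sham and 1.85 to 5.43 times in male sham, against 0.342 to 1.44 times in female IVF and 0.997 to 2.45 times in male IVF. PRPF3 was at 1.51 to 3.05 times PRPF19 in female sham and 1.31 to 4.13 times in male sham, against 0.268 to 0.646 times in female IVF and 0.499 to 1.003 times in male IVF. These pairs were chosen after the values were seen and were not tested.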
